A study of Mus musculus with 2 samples.

Results

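The Hox cluster genes encode homeodomain transcription factors, and the deposited lung tables of this mouse study hold 39 of them among 22072 genes. Members were taken as every gene symbol made of Hox, a cluster letter from a to d and a number, and the values of their 41 transcript records were summed per gene. This rule uses names and no measured value, though the Hox genes were chosen with earlier results of these data known. Of the 39 genes, 11 had a mean of 1 FPKM or more over the libraries, another 11 lay below that level with at least about 1 read in a library, and 17 were without a read in both.

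The control pool was lung RNA of mice with floxed Foxf1 alleles alone (genotype Foxf1 fl/fl). The knockout pool was lung RNA of mice with the genotype Pdgfb-iCreER / FoxF1 fl/fl, in which the Pdgfb promoter drives a tamoxifen-inducible Cre recombinase in endothelial cells. Both were on the C57/BL6 background. Each pool mixes the RNA of several mice and was sequenced as 1 library. The sources used here do not state the age, sex or number of mice or the tamoxifen schedule. Since the control mice carried no Cre, an effect of Cre or of its transgene cannot be told apart from an effect of the loss of Foxf1. The study asked which lung transcripts depend on endothelial Foxf1, and the comparison here asks how the Hox genes stood in the 2 pools. Foxf1, listed as Foxf1a, had 72.1 FPKM in control lung and 15.7 FPKM in knockout lung, 4.59-fold lower (3.97 to 5.34). Whether that record lies in the deleted part was not tested.

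Mammalian Hox genes lie in 4 clusters, A to D, on different chromosomes, and genes at the same place in different clusters are paralogues that share a number. Low numbers mark the end of the cluster that is used first and furthest towards the head in the embryo, and high numbers mark the end used for the hind body, limbs and genital tract. In the lung, Hox genes are known mainly from the mesenchyme. Hoxa5 is needed for airway and lung development in mice, and the paralogues of Hoxa5 act together in lung mesenchyme upstream of Wnt2, Wnt2b and Bmp4.

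FPKM, fragments per kilobase of transcript scaled to the size of the library, is the authors' measure and can be compared between genes. Differences between the pools are given as plain FPKM ratios with a 95% exact conditional (Clopper-Pearson) interval from approximate read numbers. The interval covers counting error only. Where a pair of values is given for a gene or list, control lung comes first and knockout lung follows. With 1 library per genotype there is no spread between replicates and no test, so every difference below compares these 2 libraries, not the genotypes. In RNA of whole lung, fewer cells of a type and less RNA per cell cannot be told apart.

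The promoters of 4 Hoxa genes are shown because these neighbours in 1 cluster went different ways: Hoxa2 and Hoxa3 were close to level between the pools, while Hoxa5 and Hoxa7 were lower in the knockout pool. Each run holds the 250 bases before the transcription start of the RefSeq record (GRCm38.p6), 5′ to 3′ on the strand of the gene, and capitals mark CpG dinucleotides.
Hoxa2, chr6:52164832-52165081, minus strand: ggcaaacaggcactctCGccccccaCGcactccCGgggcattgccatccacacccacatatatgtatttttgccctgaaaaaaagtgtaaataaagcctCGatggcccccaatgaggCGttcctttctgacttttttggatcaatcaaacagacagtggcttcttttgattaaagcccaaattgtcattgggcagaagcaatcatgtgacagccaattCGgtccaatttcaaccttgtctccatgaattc
Hoxa3, chr6:52213068-52213317, minus strand: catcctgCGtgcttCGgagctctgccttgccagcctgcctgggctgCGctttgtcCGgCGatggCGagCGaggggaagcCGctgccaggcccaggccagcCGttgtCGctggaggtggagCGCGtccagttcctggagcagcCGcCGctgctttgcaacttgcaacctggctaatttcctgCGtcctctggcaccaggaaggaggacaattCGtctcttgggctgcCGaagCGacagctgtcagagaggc
Hoxa5, chr6:52204588-52204837, minus strand: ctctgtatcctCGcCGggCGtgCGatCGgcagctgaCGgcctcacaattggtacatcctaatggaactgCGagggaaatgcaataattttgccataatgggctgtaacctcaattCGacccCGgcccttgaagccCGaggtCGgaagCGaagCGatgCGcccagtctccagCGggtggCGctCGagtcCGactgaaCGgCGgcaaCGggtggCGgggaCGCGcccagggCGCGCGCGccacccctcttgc
Hoxa7, chr6:52218574-52218823, minus strand: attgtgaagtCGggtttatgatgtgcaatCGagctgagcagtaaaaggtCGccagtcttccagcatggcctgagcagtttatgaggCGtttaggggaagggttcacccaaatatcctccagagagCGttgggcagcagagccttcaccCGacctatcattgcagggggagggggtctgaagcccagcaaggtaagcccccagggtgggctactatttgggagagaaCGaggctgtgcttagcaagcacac

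The Hoxa5 run holds 28 CpG and the Hoxa3 run 18, against 7 for Hoxa7 and 6 for Hoxa2. Over windows of 300 bases, which add the first 50 transcribed bases, 24 promoters of 22 Hox genes were in the RefSeq table, with a median of 14.5 CpG against 7 in all 32851 promoters. Each motif below was searched on both strands. The forkhead core TAAACA was in 3 of the 24 Hox windows and in 13.4% of all windows. It was in none of the 4 windows shown, but other forms of the forkhead site were not searched. The letters TGATTNAT, a composite site of Hox proteins and their partner Pbx, were in 2 of the 24 Hox windows and 3.22% of all windows, and the match of the Hoxa2 promoter begins at base -111 counted from its start. The half-site AGGTCA of nuclear receptors, to which retinoic acid receptors belong, was in 7 of the 24 Hox windows and in 16.3% of all windows. Such matches are a description of letters and not of binding.

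Lung Hox RNA came almost entirely from the A and B clusters in both pools. Summed over genes, the A cluster (chromosome 6, 52105366 to 52210874, mm9) had 43.6 FPKM in control lung and 25.4 FPKM in knockout lung, 1.72-fold lower (1.56 to 1.89). The B cluster (chromosome 11, 96055675 to 96229567) had 28.2 and 21.98 FPKM, 1.28-fold lower (1.15 to 1.42). The C cluster on chromosome 15 had 0.198 and 0.447 FPKM, and the D cluster on chromosome 2 had 0.545 and 1.05 FPKM, both with intervals of the ratio that include equality. All 39 genes together had 72.5 FPKM in control lung and 48.8 in knockout lung, 1.48-fold lower (1.39 to 1.59). Hoxa5 alone supplied 41.8% of that sum in control lung and 29.3% in knockout lung. Without Hoxa5 the sums were 42.2 and 34.5 FPKM, and the difference was 1.22-fold (1.12 to 1.33).

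**Figure D1:**
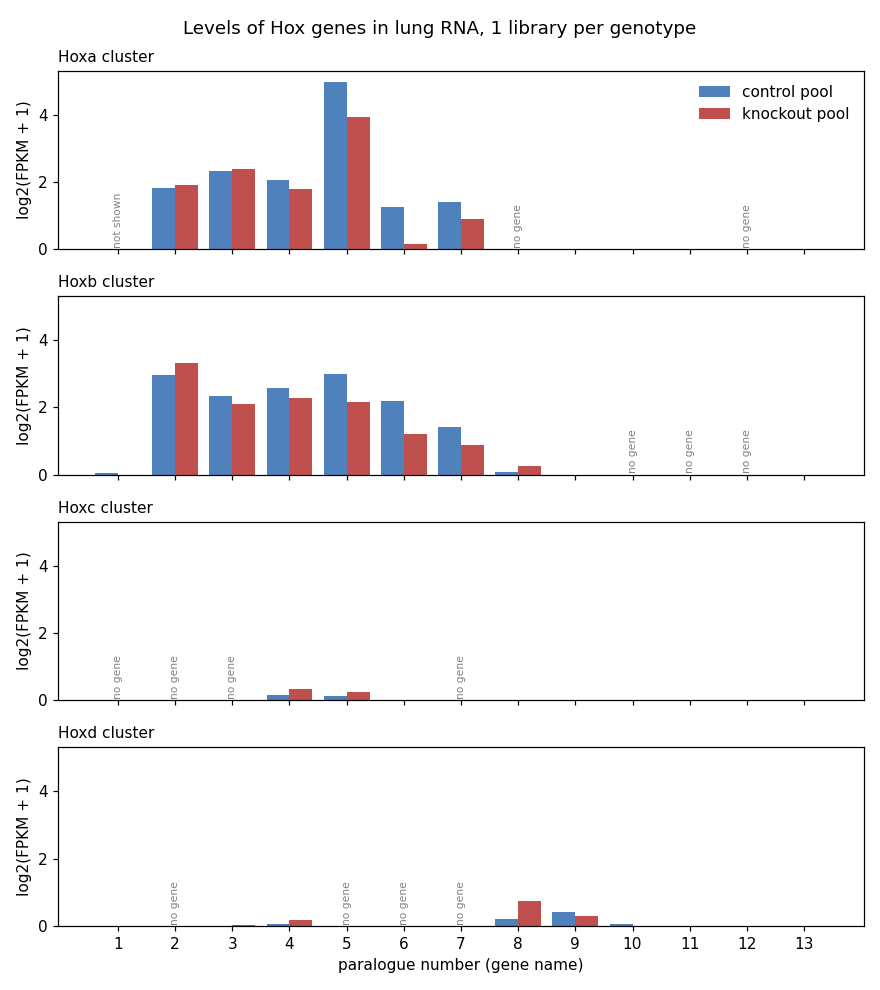
Level of the Hox genes reported here as log2(FPKM + 1) against paralogue number, with 1 panel per cluster and bars for the control and the knockout pool (1 library each); positions marked in grey hold no gene or a gene that is not shown. The highest bars are among paralogues 2 to 7 of the A and B clusters, where Hoxa6 is near 0 in the knockout pool. Hoxa5 is the highest in both pools, and the C and D clusters and the high numbers are near 0.

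In the A and B clusters the difference went in steps with the paralogue numbers, up to number 7. Genes of paralogues 2 and 3 were level or slightly higher in the knockout pool apart from Hoxb3. Those of paralogue 4 were slightly lower, and all 6 genes of paralogues 5 to 7 were lower. Within paralogues 5 to 7 the ratios were not graded by number and were lowest at 6 in both clusters. The order of the numbers is not that of the start sites, since the Hoxa3 record starts between Hoxa6 and Hoxa7. Grouped by the usual division of the clusters, anterior genes (paralogues 1 to 3) summed to 17.9 FPKM in control lung and 20.0 FPKM in knockout lung, 1.12-fold higher (0.998 to 1.26). Central genes (paralogues 4 to 8) summed to 54.3 and 28.6 FPKM, 1.90-fold lower (1.74 to 2.08), and without Hoxa5 they were 1.68-fold lower (1.47 to 1.91). Posterior genes (paralogues 9 to 13) summed to 0.354 and 0.228 FPKM. The anterior share of all Hox FPKM was thus 24.6% in control lung and 41.0% in knockout lung.

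**Figure D2:**
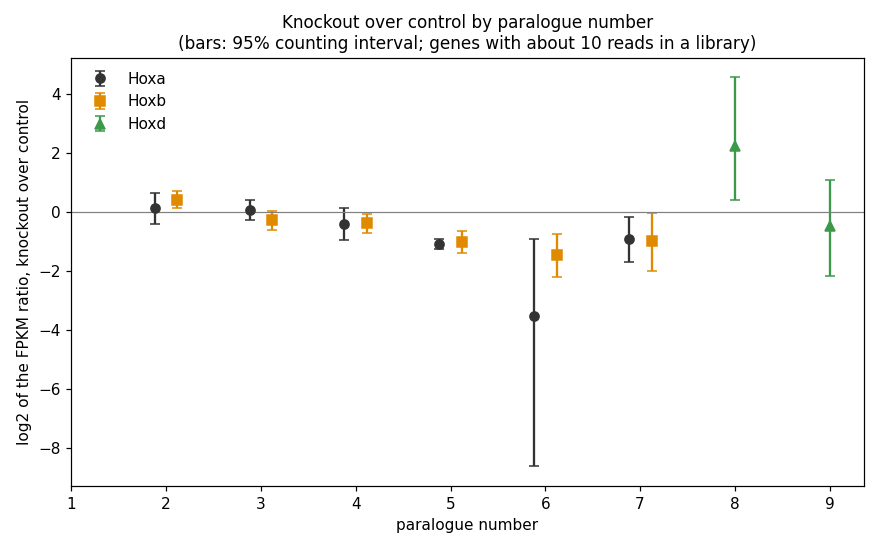
Log2 of the FPKM ratio, knockout over control, against paralogue number for the Hox genes reported here with about 10 reads or more in a library; points are genes, colours are clusters and bars are 95% counting intervals. The A and B genes step down from paralogue 2 to paralogues 5 to 7, and Hoxd8 lies above equality.

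On the log2(FPKM + 1) scale, 3 of the 11 Hox genes with a mean of 1 FPKM or more were at least 1.5-fold lower in the knockout pool, Hoxa5, Hoxb5 and Hoxb6, and 0 were at least 1.5-fold higher. Of all 12929 genes at that level, 4.63% were at least 1.5-fold lower and 9.41% at least 1.5-fold higher. By the plain FPKM ratio 5 of the 11 were at least 1.5-fold lower, Hoxa7 and Hoxb7 being added, against 6.94% of all genes, and 0 were at least 1.5-fold higher, against 12.2%. The median log2 ratio of the 11 was -0.32, with 8 below equality, and that of all genes at that level was 0.05, with 43.2% below equality. Hoxa7 and Hoxb7 were under 1 FPKM in the knockout pool and reached this level through the control pool. The count and the median therefore describe 11 of the 39 genes and not the family as a whole.

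Hoxa5 and Hoxb5 were lower by nearly the same factor. Hoxa5 (chromosome 6, 52151753 to 52154586, mm9) had 30.3 FPKM in control lung and 14.3 in knockout lung, from about 937 and 342 reads. It was 2.12-fold lower (1.87 to 2.41) and the 1 Hox gene at least 2-fold lower on the log2(FPKM + 1) scale, where 1.25% of all genes with a mean of 1 FPKM or more were at least 2-fold lower and 3.75% at least 2-fold higher. In the control pool 9.49% of all genes had a level at or above that of Hoxa5. Hoxb5 (chromosome 11, 96164826 to 96167435) had 7.02 and 3.46 FPKM, 2.03-fold lower (1.57 to 2.64). The ratio of Hoxa5 to Hoxb5 was thus 4.32 in control lung and 4.13 in knockout lung. The remaining paralogue of this number, Hoxc5, had 0.0931 and 0.176 FPKM from about 4 and 6 reads, too few for a ratio.

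Paralogues 6 and 7 had lower levels and also stood lower in the knockout pool. Hoxb6, known from the trunk mesoderm of the embryo, had 3.59 FPKM in control lung and 1.32 in knockout lung, 2.73-fold lower (1.68 to 4.59). Hoxa6 had 1.39 FPKM from about 16 reads in control lung and 0.120 FPKM from about 1 read in knockout lung. Its ratio of 11.6-fold lower has an interval from 1.89 to 395, so only the direction can be read from it. Hoxa7 had 1.65 and 0.879 FPKM, 1.88-fold lower (1.12 to 3.24), and Hoxb7 had 1.67 and 0.845 FPKM, 1.98-fold lower (1.03 to 4.01). The interval of Hoxb7 comes near equality. The ratio of Hoxa7 to Hoxb7 was 0.986 in control lung and 1.04 in knockout lung. That of Hoxa6 to Hoxb6 was 0.388 and 0.0913, the latter from about 1 read of Hoxa6. Among the lower numbers the ratio of Hoxa4 to Hoxb4 was 0.636 and 0.634, that of Hoxa3 to Hoxb3 was 1.01 and 1.28, and that of Hoxa2 to Hoxb2 was 0.371 and 0.303. The A and B paralogues thus had nearly the same ratio in both pools at numbers 4, 5 and 7, and the values differed more at 2, 3 and 6. No interval was computed for these ratios. The knockout over control intervals of the A and the B gene overlap at each number from 2 to 7. Whether the paralogues differed was therefore not tested.

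Paralogue 4 formed the step between the level and the lower genes. Hoxb4, a factor known for expanding blood stem cells when overexpressed, had 5.03 FPKM in control lung and 3.83 in knockout lung, 1.31-fold lower (1.05 to 1.65). Hoxa4 had 3.20 and 2.43 FPKM, 1.31-fold lower (0.907 to 1.92), so the same ratio had an interval that includes equality in the less abundant gene. Hoxc4 and Hoxd4 had fewer than 10 reads in each library.

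Among the anterior genes, Hoxb2 was the only member of the 11 whose interval lay above equality. Hoxb2, which patterns hindbrain nerve nuclei in the embryo, had 6.76 FPKM in control lung and 9.04 in knockout lung, 1.34-fold higher (1.08 to 1.65), with rank 3 among the Hox genes of control lung and rank 2 in knockout lung. Hoxa2, which specifies structures of the second pharyngeal arch, had 2.51 and 2.74 FPKM, 1.09-fold higher (0.758 to 1.57). Hoxa3, which is needed for the thymus and parathyroid, had 4.05 and 4.23 FPKM, a ratio of 1.04 (0.827 to 1.31) that fell just under equality when the knockout values were rescaled by each of 3 other methods. Hoxb1 had about 1 read in the control pool and was listed at 0 in the knockout pool, and Hoxd1 was listed at 0 in both.

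Hoxb3 is the member whose transcripts went different ways. Its sum was 4.01 FPKM in control lung and 3.30 in knockout lung, 1.22-fold lower (0.980 to 1.51). The long record (chromosome 11, 96184440 to 96209244, mm9), which starts next to Hoxb4, had 2.56 and 1.33 FPKM, 1.93-fold lower (1.41 to 2.67). The short record, from 96205083 to the same end, had 1.45 and 1.97 FPKM, 1.36-fold higher (0.988 to 1.88). The records share most of their sequence, so their separate values rest on how the authors' software divided shared reads. Whether that division differed between the libraries was not tested.

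Over the 6 genes Hoxb2 to Hoxb7, each with 10 or more reads in both libraries, Spearman's rho between paralogue number and FPKM ratio was -0.83. It is a correlation across genes and a description only. All points come from the same 2 libraries and neighbouring genes are not independent. The Hoxa3 record spans Hoxa4, Hoxa5 and Hoxa6, and paralogues share homeobox sequence, so reads may have been divided between members.

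**Figure D3:**
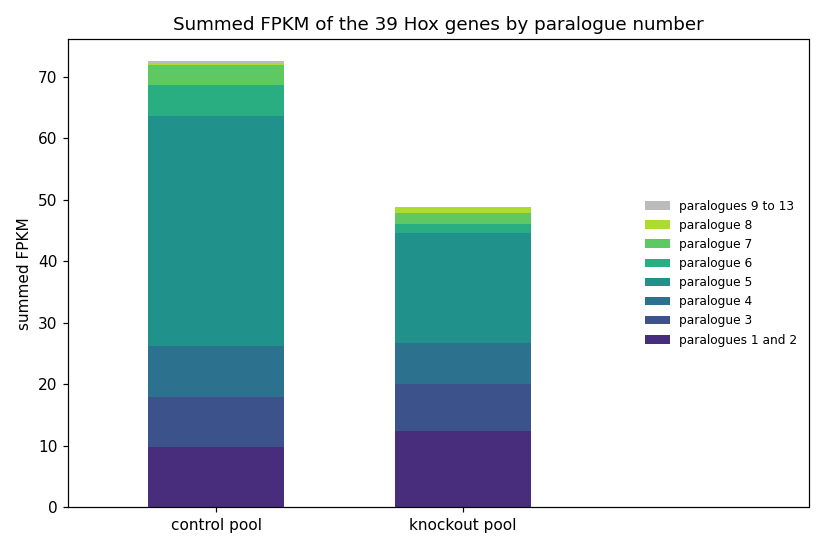
Summed FPKM of the 39 Hox genes in the control and knockout pools (1 library each), stacked by paralogue number, with the lowest numbers at the bottom. The stack is 72.5 FPKM high in control lung and 48.8 in knockout lung, and the layer of paralogue 5 is 37.4 and 17.9 FPKM.

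Beyond paralogue 7 the genes of the A and B clusters had too few reads to follow the order further. Hoxd8 was 0.141 FPKM in control lung and 0.664 in knockout lung, from about 3 and 12 reads, 4.70-fold higher (1.33 to 23.5). Hoxb8, known from myeloid blood cells, had 0.0586 and 0.187 FPKM from about 3 and 6 reads. Hoxd9 had 0.318 and 0.228 FPKM from about 11 and 6 reads. Of the 5 C and D genes with a read in both libraries, Hoxc4, Hoxc5, Hoxd4 and Hoxd8 had the higher value in the knockout pool and Hoxd9 the lower. Apart from Hoxd8, the depth does not separate these values between the pools.

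Genes of the posterior end were nearly without reads. Of the 16 genes of paralogues 9 to 13, 14 had no read in either library, among them Hoxa9, a factor of blood progenitors, Hoxa11 and Hoxa13 of limb and genital tract, and Hoxb13 of prostate. Hoxc6, Hoxc8 and Hoxd1 were the others without a read, Hoxc8 being listed at values just above 0. For the 17 genes without a read, 3 reads would correspond to between 0.0871 and 0.279 FPKM in the knockout pool, and between 0.0675 and 0.216 in the control pool. For these genes a count of 0 does not exclude levels below that. Transcripts held about 13.2 M reads in control lung and 10.4 M in knockout lung.

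Hox proteins bind DNA together with TALE homeodomain partners of the Pbx, Meis and Pknox families. Counts and medians of this and the following lists are on the log2(FPKM + 1) scale, and the highest and lowest members are named on it. Beside all these counts stand the shares over all genes with a mean of 1 FPKM or more. Of those, 4.63% were at least 1.5-fold lower and 9.41% at least 1.5-fold higher. Of the 8 partners with a mean of 1 FPKM or more, among 9 listed, 2 were at least 1.5-fold lower and 0 higher. Their median log2 ratio was -0.14, and 1 of them stood above equality. Meis1 was the lowest, at 13.4 FPKM in control lung and 8.35 in knockout lung, 1.60-fold lower (1.41 to 1.82). Pknox2, named after its value was seen, had 11.5 and 7.23 FPKM. Pbx2, the most abundant partner, had 18.6 and 17.3 FPKM and differed less. Pbx3 was the highest, at 8.72 and 10.1 FPKM, with an interval that includes equality.

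Polycomb group proteins keep Hox genes silent and trithorax group proteins keep them active. All 28 Polycomb genes were at 1 FPKM or more on average, 2 of them at least 1.5-fold higher and 1 lower, with a median log2 ratio of -0.02. Phf19, a Polycomb-like protein, had 0.745 FPKM in control lung and 3.79 in knockout lung, 5.09-fold higher (3.67 to 7.20). It was under 1 FPKM in the control pool and reached the floor through the knockout pool. Ezh2, the histone H3K27 methyltransferase, named after its value was seen, had 3.11 and 8.75 FPKM, 2.81-fold higher (2.29 to 3.47). The other methyltransferase of that complex, Ezh1, also named after its value was seen, went the other way with 18.3 and 12.9 FPKM, 1.42-fold lower (1.29 to 1.56). Cbx8 was the lowest at 3.85 and 2.22 FPKM, and the abundant Rbbp7 (40.7 and 56.8 FPKM) and Phc2 (38.6 and 45.7 FPKM) were both higher by less than 1.5-fold. Marker genes of dividing cells stood beside these differences: all 5 were higher, with a sum of 8.40 FPKM in control lung and 100.2 in knockout lung, and their part in the values of Ezh2 and Phf19 was not tested. Among the 12 trithorax group genes and H3K27 demethylases, 1 was at least 1.5-fold lower and 0 higher, with a median of -0.10. That gene was Kdm6b, a demethylase that removes the Polycomb mark, at 12.9 and 7.85 FPKM, 1.64-fold lower (1.49 to 1.80). Ash2l was the highest at 12.4 and 15.4 FPKM, and Dpy30 the most abundant at 23.6 and 27.3 FPKM.

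Retinoic acid induces anterior and central Hox genes in the embryo. Of its 18 listed genes, 11 were at 1 FPKM or more on average, 3 of them at least 1.5-fold lower and 0 higher, with a median log2 ratio of -0.31. That median rests on the floor, since it was -0.10 with no floor and -0.17 with a floor of 5 FPKM. Aldh1a1, an enzyme of retinoic acid synthesis, was the most abundant and, on the log2(FPKM + 1) scale, the lowest, at 607 FPKM in control lung and 319 in knockout lung, 1.90-fold lower (1.85 to 1.95). Aldh1a2, another enzyme of the same step, was the highest at 7.49 and 11.6 FPKM, 1.54-fold higher by the plain ratio (1.31 to 1.82). Dhrs3, a retinal reductase, had 64.4 and 37.0 FPKM. Cyp26b1, which breaks retinoic acid down, and Rarb, a receptor gene that retinoic acid induces, were both named after their values were seen. Cyp26b1 had 2.08 and 0.988 FPKM, the lowest of the list by the plain ratio at 2.11-fold lower (1.56 to 2.89), and Rarb had 1.87 and 1.15 FPKM. Cyp26b1 was under 1 FPKM in the knockout pool and reached the floor through the control pool. Genes of synthesis, breakdown and reception thus stood lower side by side, with Aldh1a2 as the exception among the named ones.

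Homeobox genes outside the Hox clusters had no common direction. Of 31 listed genes, 16 were at 1 FPKM or more on average, 4 at least 1.5-fold higher and 0 lower, with a median log2 ratio of 0.03 that lay below 0 under 5 of 9 other settings. On the log2(FPKM + 1) scale Hlx, a mesenchymal factor, was the highest, at 8.72 FPKM in control lung and 22.7 in knockout lung, 2.61-fold higher (2.27 to 2.998). The other 3, Lhx6 (1.26 and 3.44 FPKM, the highest by the plain ratio at 2.72-fold), Prrx1 (2.46 and 4.65 FPKM) and Msx1 (2.13 and 4.10 FPKM), were named after their values were seen. Hopx, of alveolar type 1 cells, was the lowest on the log2(FPKM + 1) scale at 692 and 467 FPKM. By the plain ratio Six4, named after its value was seen, was lower, with 1.62 and 0.898 FPKM, 1.80-fold (1.33 to 2.45). Six4 was under 1 FPKM in the knockout pool and reached the floor through the control pool. Nkx2-1, of lung epithelium, had 106 and 84.0 FPKM. Evx1 and Evx2, the homeobox genes next to the posterior ends of the A and D clusters, were listed at 0 in both pools, like the posterior Hox genes beside them.

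Genes placed downstream of the Hox5 paralogues in lung were not uniformly lower with Hoxa5 and Hoxb5. Of 6 listed genes, 1 was at least 1.5-fold lower and 0 higher, with a median log2 ratio of -0.11. Wnt2b had 1.59 FPKM in control lung and 0.629 in knockout lung, 2.52-fold lower (1.65 to 3.98). It was under 1 FPKM in the knockout pool and reached the floor through the control pool. Wnt2 went the other way, at 4.73 and 6.60 FPKM, 1.40-fold higher (1.12 to 1.74). Nkx2-1, also on this list and its most abundant member, is given above. Bmp4 had 24.3 and 22.2 FPKM, with an interval that includes equality.

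**Figure D4:**
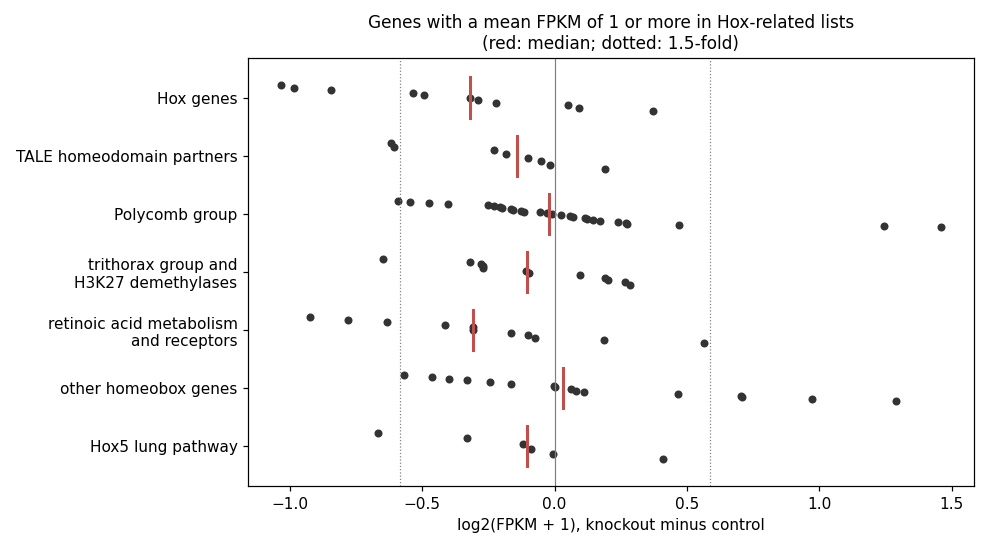
Log2(FPKM + 1) of the knockout pool minus that of the control pool for genes with a mean of 1 FPKM or more in the Hox genes and 6 related lists; each dot is a gene, the red bar is the median of the list and dotted lines mark 1.5-fold. The Hox median is -0.32 and the retinoic acid median -0.31. With no floor they are -0.04 and -0.10. Ezh2 and Phf19 are the far right dots of the Polycomb list.

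Marker genes of the cell types that could carry Hox RNA differed in several directions. The 7 fibroblast and mesenchyme markers summed to 394 FPKM in control lung and 688 in knockout lung, with 3 at least 1.5-fold higher and 0 lower. The members are named after their values were seen. The 3 were collagen genes, Col1a1 (43.4 and 113 FPKM), Col1a2 (77.7 and 175 FPKM) and Col3a1 (91.2 and 223 FPKM), and the sum is higher through them. Of the rest, Pdgfra (52.3 and 65.1 FPKM) and Lum (3.21 and 5.28 FPKM) were higher. Dcn (66.3 and 50.6 FPKM) and Tcf21, a factor of lung fibroblasts (59.6 and 55.9 FPKM), were lower. The 5 smooth muscle markers summed to 187 and 384 FPKM with 2 higher, the 4 pericyte markers to 48.8 and 65.6 FPKM with 1 higher, and the 4 mesothelial markers to 56.6 and 87.3 FPKM with 2 higher. None of these mesenchymal lists had a member at least 1.5-fold lower on the log2(FPKM + 1) scale. By the plain ratio 1 pericyte marker, Kcnj8, was lower, with 3.39 and 2.14 FPKM, 1.58-fold (1.15 to 2.20). The 6 endothelial markers summed to 662 and 730 FPKM, with Emcn at least 1.5-fold higher and Erg lower. That sum is higher through Emcn (30.0 and 153 FPKM). The median log2 ratio of the 6 was -0.10, and 2 stood above equality. Airway epithelial markers summed to 36875 and 23707 FPKM, with 3 of 4 lower and 0 higher, and the 6 alveolar markers to 21008 and 17904 FPKM with none past 1.5-fold. The 6 leukocyte markers summed to 83.0 and 124 FPKM with 1 higher. Of 5 blood progenitor genes, 3 were at 1 FPKM or more on average, with Kit at 47.3 and 16.4 FPKM, Gata2 lower and Cd34 higher. The part of these shifts in the Hox values was not tested.

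Tissues that neighbour the lung or use posterior Hox genes left almost no signal. The cartilage genes Acan, Col2a1, Col9a1 and Matn1 were listed at 0 in both pools. The kidney genes summed to 0.135 and 0.0257 FPKM, with Umod and Slc34a1 at 0. Skeletal muscle genes summed to 1.45 and 1.24 FPKM, thymus genes to 0.496 and 0.542, squamous epithelial genes to 0.174 and 0.260, and brown fat genes to 0.280 and 0.181, with no gene at 1 FPKM or more on average.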

How the data were processed

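Lung RNA of pooled mice was sequenced as 1 library per genotype. The authors deposited FPKM values for 28107 RefSeq transcripts per library and, per the file headers, a coverage signal, proportional to FPKM in each library. The submitters' processing notes list build mm9 and DESeq with no role. The aligner and quantification tool are not given in sources used here. Starts are printed counted from 1. The tables, whose rows are in different orders, were joined by transcript, gene, locus and length, and FPKM was summed per gene. Log2 ratios used a pseudocount of 1, which understates differences of low genes; counts of higher and lower genes used a floor of 1 on the mean FPKM and a fold of 1.5. Approximate reads were coverage times length divided by the bases that 1 read adds (47.6 in the knockout library, 47.5 in the control library), the median over genes with 1 transcript and about 1 read. Folds were computed for genes above 0 in both libraries with about 10 reads in at least 1, and 3 reads were taken as the limit of a count of 0. Intervals were checked on simulated libraries (Python 3.11.15, SciPy 1.17.1, pandas 2.3.3). All 41 Hox records had status OK in both libraries. Named were each Hox gene with a mean of 1 FPKM or more or a value above 0.5, and of each related list the 2 most abundant, the lowest and the highest member. Of the genes this rule names, 1 Hox gene and 1 partner gene are not reported here singly, and they stay in the sums and counts. The Hox genes, lists and markers were chosen with earlier results of these data known.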

Additional observations from a re-analysis of the deposited data

How the results depend on the processing

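The number of Hox genes at least 1.5-fold lower was 3 as reported. It was 5 with a pseudocount of 0.1, 1 (Hoxa5) with a fold of 2, and 5 by the plain FPKM ratio, an alternative added after seeing the data. The median log2 ratio of Hox genes with a mean of 1 FPKM or more was -0.85 with a floor of 5 FPKM, where 3 Hox genes remain, and -0.04 with no floor, where 23 enter. The retinoic acid median of -0.31 was -0.17 with a floor of 5 and -0.10 with no floor, close to the TALE partners at -0.16 and -0.10. Hoxb3 was at -0.61 when its most abundant transcript alone was used. The remaining alternatives (a pseudocount of 3, rescaling to the median ratio, to the upper quartile or to the total without the 100 most abundant genes, and records of status OK) left the counts of higher and lower Hox genes within 1.5 times, and Hoxa4, Hoxa5, Hoxa6, Hoxa7, Hoxb3, Hoxb4, Hoxb5, Hoxb6 and Hoxb7 stayed below equality in all 7 settings run for single genes. Over these settings Hoxa5 ranged from -1.12 to -0.95 and Hoxb6 from -1.38 to -0.61. No paired analysis was possible because each genotype is 1 library, and for the same reason no replicate could be left out. Depth limits the C and D clusters and Hoxa6, whose values rest on fewer than 20 reads per gene and library.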

Other observations

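Other records inside the Hox clusters were almost without reads. Of 10 such records none reached a mean of 1 FPKM. The hairpin records of the microRNA genes Mir10a, Mir10b, Mir196a-1, Mir196a-2, Mir196b and Mir615, were listed at 0 in both pools. Mir615 lies inside the Hoxc5 record and Mir10b inside the Hoxd3 and Hoxd4 records. Libraries of long RNA do not measure mature microRNAs, so nothing can be read from this about their levels. The noncoding RNA 2700086A05Rik (chromosome 6, 52151123 to 52163596, mm9), singled out after its value was seen, was the exception. It overlaps Hoxa3, Hoxa5 and Hoxa6 and had 0.388 FPKM from about 5 reads in control lung and 0 in knockout lung. These are too few reads for a ratio, and whether they came from the overlapping records was not tested.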
